A study of Bos taurus with 60 samples.

Results

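The descending colon, the last stretch of the colon before the rectum, was compared with the cecum, the blind pouch at the start of the large intestine, by small RNA sequencing of cattle (Bos taurus) tissue. The comparison rests on 20 of the 60 libraries of the study, chosen by their region labels, with 10 of each region. In each region 5 libraries came from non-shedders, cattle negative for fecal Escherichia coli O157, and 5 from super-shedders, cattle that shed this bacterium in large numbers. Library titles begin with a letter, which is one of A to E in all non-shedders and one of F to J in the super-shedders. This letter was taken as the animal, so that every letter gave 1 cecum and 1 descending colon library. Breed, age and treatment were not given in the labels, and the extraction protocol speaks of rectal tissue throughout, whereas the tissue labels give the regions, which were used here. Both statuses entered the comparison together, and a test of whether the region difference depends on status is given further on.

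MicroRNAs (miRNAs) are short RNAs that guide Argonaute proteins to messenger RNAs and lower their translation and stability. In the gut, miR-192, miR-194 and miR-215 mark the absorptive epithelium, miR-143 and miR-145 smooth muscle and other mesenchymal cells, and miR-223 neutrophils and other myeloid cells. The miRNAs of the HOX clusters, among them miR-196a, miR-196b, miR-10a and miR-10b, lie among the genes that set position along the body axis. miR-215 and miR-192 are close in sequence and share their seed, the stretch that pairs with targets, and each lies beside a copy of miR-194. In the bovine reference (assembly ARS-UCD2.0) MIR215 neighbours MIR194-1 and IARS2, and MIR192 neighbours MIR194-2 and EHD1. How the authors' counting divided reads between miR-215 and miR-192 is not given in the sources used here.

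Total counts ran from 875432 to 4995993 in the cecum and from 966622 to 19346766 in the descending colon. An exact paired permutation test detected no difference (p = 0.3125, two-sided, 5 of 10 letters higher in the descending colon). Depth was uneven, as the descending colon of letters A and J, at 19346766 and 13942283 counts, lay far above every cecum library. Between 384 and 435 miRNAs were detected in a cecum library and between 350 and 507 in a descending colon library (p = 0.945, exact paired permutation test; the smallest p this design allows is 0.00195). Levels below are CPM, read counts relative to library size, after TMM scaling, which corrects for the makeup of a library, so that the level of a very abundant miRNA can exceed its share of the counts. miR-143 alone supplied 16.2% to 70.4% of the counts of a cecum library and 11.7% to 69.2% of those of a descending colon library.

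4 libraries stood apart in their marker miRNAs. miR-196b was at 235 to 960 CPM in 17 of the 20 libraries, while the cecum of letter I held 0.705 CPM and the descending colon of letter G 1.05 CPM. In the descending colon of letter H miR-196b had a count of 0, which allows a level of up to 1.59 CPM. Elsewhere in the study miR-196b was under 5 CPM in 10 of 10 duodenum, 5 of 10 proximal jejunum, 7 of 10 distal jejunum and 3 of 10 spiral colon libraries (letters C, H and I in the last). The descending colon of letter I held 235 CPM of miR-196b but 8.01 CPM of miR-196a, which was at 95.8 to 230 CPM in letters A to F and J there. It held 3356 CPM of miR-192 and 43.1 CPM of the epithelial miR-200b, where the remaining descending colon libraries held at least 28805 and 1283 CPM. The same library held 18670 CPM of miR-486 and 1286 CPM of miR-451, both miRNAs of red blood cells, whereas none of the remaining descending colon libraries exceeded 567 and 99.4 CPM. Results are therefore also given without these libraries or their letters.

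**Figure D1:**
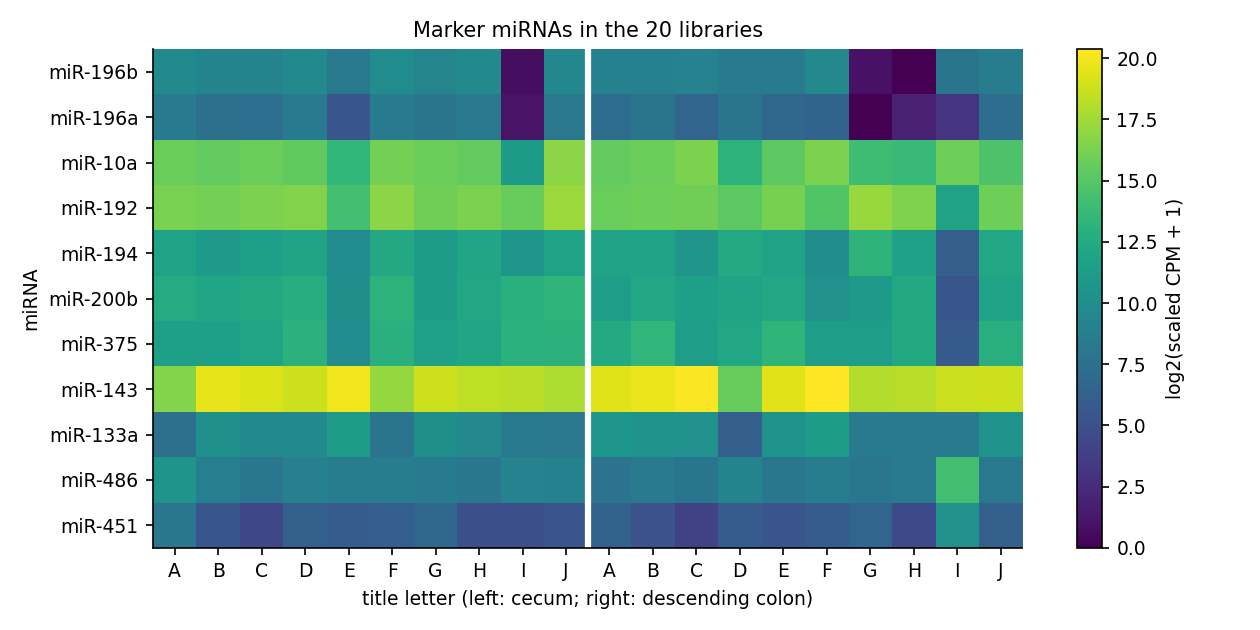
Levels of 11 marker miRNAs (rows) in the 20 libraries (columns, by title letter; cecum left, descending colon right), coloured by log2(scaled CPM + 1). The cecum of letter I and the descending colon of letters G and H are dark for miR-196b and miR-196a, and the descending colon of letter I is low in miR-196a, miR-192, miR-194, miR-200b and miR-375 and high in miR-486 and miR-451.

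The largest difference between the regions was in miR-215, which passed the test in several fits but not in the main one. Its level ran from 314 to 1518 CPM in the cecum, with a median of 1214 CPM. In the descending colon it ran from 247 to 39028 CPM, with a median of 12010 CPM. In 7 of 10 descending colon libraries miR-215 lay above every cecum library, from 9159 CPM in letter E to 39028 CPM in letter G. The descending colon of letters C (1247 CPM), F (1113 CPM) and I (247 CPM) lay within or below the range of the cecum, so the regions overlapped. Within letters it was higher in the descending colon in 8 of 10, all but F and I.

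With the letter as a block, miR-215 had a log2 fold change of 2.86 ± 0.70 (SE, 10 letters), or 7.25-fold, with a 95% interval from 1.27 to 4.45. In this fit by edgeR's quasi-likelihood test its unadjusted p was 0.00159 and its adjusted p 0.164, so it did not pass the threshold of 0.05. In the same fit 0 of 261 tested miRNAs passed in either direction, 0% higher and 0% lower, while 14 (5.36%) had an unadjusted p under 0.05. Without the block miR-215 was the 1 miRNA that passed (0.383% of 261), at 3.58 ± 0.63 (edgeR, adjusted p = 0.00305). It kept an adjusted p from 2.79e-04 to 0.0189 there when each letter was left out in turn. It also passed in DESeq2 with the block (2.85 ± 0.51, adjusted p = 4.71e-06), and in edgeR with all 60 libraries in 1 fit (3.42 ± 0.69, adjusted p = 0.00267), where it was the 1 call of 275 (0.364%). It did not pass in limma-voom, with the block (2.53, adjusted p = 0.198) or without (2.60, adjusted p = 0.239).

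The difference was of similar size without the libraries that stood apart. Without letters G, H and I the blocked edgeR fit gave 2.67 (adjusted p = 0.294), from 7 letters. With those 4 libraries alone left out, and with no block, it gave 3.12 ± 0.48 (adjusted p = 0.00105). With the 6 regions of the other 7 letters in 1 fit it gave 3.13 ± 0.53 (adjusted p = 3.25e-04). In those 7 letters the descending colon ran from 1113 to 18357 CPM, with a median of 11165 CPM.

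**Figure D2:**
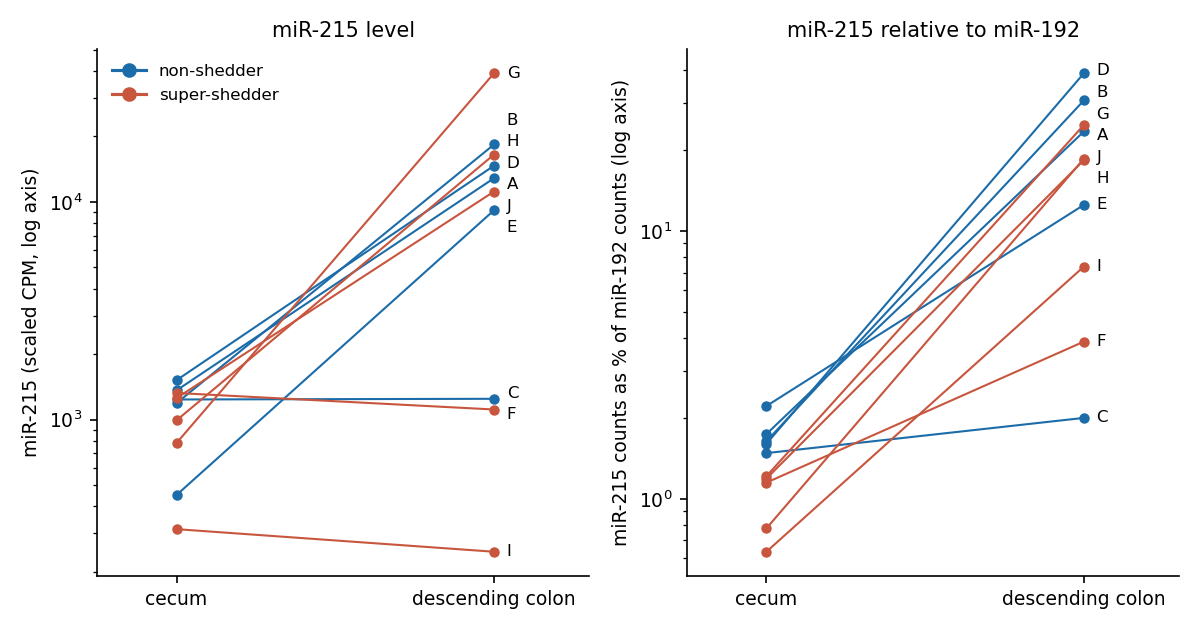
miR-215 in the cecum and descending colon of each letter, as scaled CPM (left, log axis) and as miR-215 counts in percent of miR-192 counts (right, log axis). Each line joins the libraries of 1 letter, coloured by shedding status. The level was higher in the descending colon in 8 letters, though hardly in C, and lower in F and I, while the share relative to miR-192 was higher in 10 of 10.

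The other miRNAs of the same epithelial group had smaller differences, with intervals that include 0. miR-192 ran from 20296 to 161913 CPM in the cecum and from 3356 to 156741 CPM in the descending colon, and its log2 fold change was -0.63 ± 0.50 (edgeR, adjusted p = 0.982). miR-194, encoded beside both, ran from 925 to 5064 CPM and from 71.1 to 9880 CPM, at -0.11 ± 0.57 (adjusted p = 0.982). miR-215 was also set against miR-192 within each library. This ratio was chosen after its values were seen and is given as a description, with no test. miR-215 counts came to 0.634% to 2.22% of miR-192 counts in the cecum, with a median of 1.35%. In the descending colon they came to 2.01% to 38.9%, with a median of 18.5%.

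The ratio was higher in the descending colon in 10 of 10 letters, by a median of 14.5-fold. The smallest ratio of ratios was 1.35-fold in letter C, followed by 3.36-fold in F and 5.64-fold in E, and the largest was 24.2-fold in D. In letter I, whose miR-215 level was low in both regions, it was 11.6-fold. Against miR-194 in place of miR-192 it was likewise higher in 10 of 10 letters, by 1.91-fold to 20.9-fold, with a median of 8.06-fold. Without letters G, H and I the ratio to miR-192 was higher in 7 of 7, with a median of 13.5-fold.

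Of the 6 gut regions the cecum had the lowest median of miR-215 (levels here were scaled over all 60 libraries). The medians were 28848 CPM in the duodenum, 22681 CPM in the proximal jejunum and 18146 CPM in the distal jejunum. They were 1290 CPM in the cecum, 6644 CPM in the spiral colon, which lies between the cecum and the descending colon, and 13943 CPM in the descending colon. In the fit of all 60 libraries the spiral colon exceeded the cecum by a log2 fold change of 3.50 ± 0.70 (edgeR, adjusted p = 0.00240), the 1 call of 275 in that step (0.364%). The descending colon differed from the spiral colon by -0.08 ± 0.72 (adjusted p = 0.972), in a step with 0 calls (0%). Both steps share libraries with the comparison of descending colon and cecum.

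Without letters G, H and I the step from cecum to spiral colon was 2.59 ± 0.53 (adjusted p = 0.00543), where miR-378 and miR-9-5p passed as well (3 of 284, 1.06%). The step on to the descending colon was then 0.54 ± 0.53 (adjusted p = 0.809). Letters G, H and I were chosen by their cecum and descending colon libraries only. The spiral colon of letter C stayed in this fit, although its miR-196b was also under 5 CPM. There miR-215 came to 22.2% of miR-192, the highest value of the spiral colon. In H and I, likewise under 5 CPM, it came to 17.2% and 12.9%, and in the remaining letters to 2.36% to 14.0%. A step without letters C, H and I was not tested. Relative to miR-192, miR-215 had medians of 23.6% in the duodenum, 17.6% and 17.1% in the proximal and distal jejunum, and 8.49% in the spiral colon. The cecum, with a highest value of 2.22%, overlapped the duodenum in 1 library there, that of letter I at 0.629%, and overlapped the descending colon in that of letter C.

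**Figure D3:**
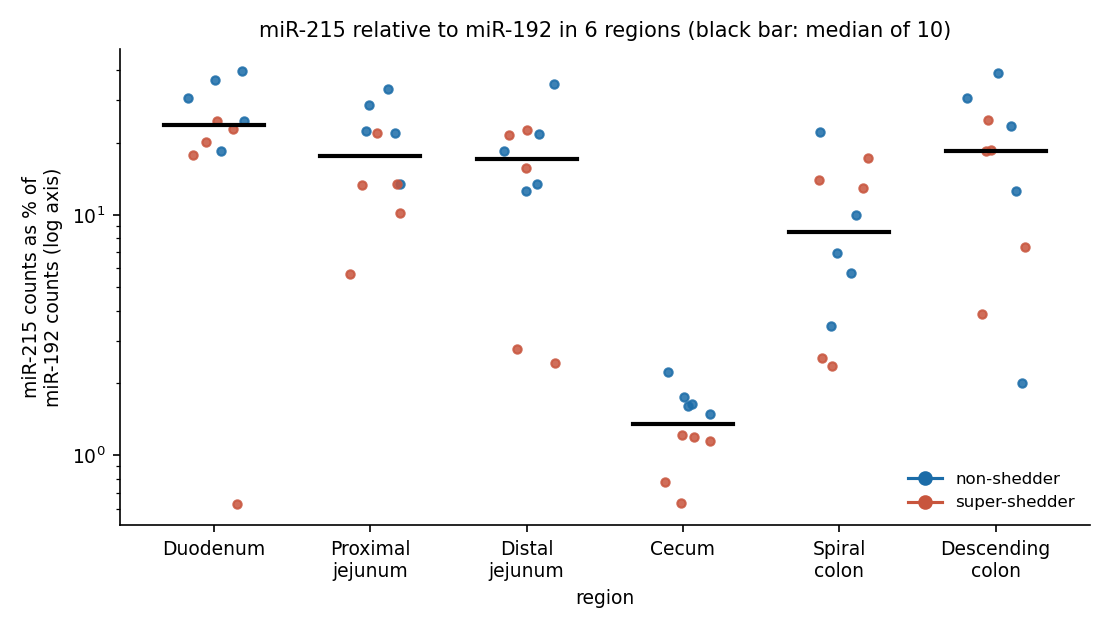
miR-215 counts in percent of miR-192 counts (log axis) in the 10 libraries of each of 6 gut regions, coloured by shedding status, with the median as a black bar. The cecum sits lowest, with a median of 1.35%, against 8.49% in the spiral colon and 18.5% in the descending colon.

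Across the whole table the regions were close. Of 261 tested miRNAs 128 had positive and 133 negative log2 fold changes, with a median of -0.00. The 10th and 90th percentiles were -0.37 and 0.29, and 8 miRNAs differed by more than 1 on the log2 scale in either direction. For 181 miRNAs (69.3%) the 95% interval of the fold change lay between -1 and 1. The median correlation of log2 levels was 0.969 between cecum libraries, 0.937 between descending colon libraries and 0.951 between the regions. The SD of the log2 level was greater in the descending colon for 191 of 261 miRNAs (73.2%). Without the 4 libraries that stood apart this was so for 137 (52.5%).

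Apart from miR-215, the smallest p-values among miRNAs with higher levels in the descending colon belonged to miR-6522, miR-9-5p, miR-374a and miR-26c, and none of them passed in the main fit. miR-6522, which lies between NPAS3 and EGLN3 in the bovine reference, ran from 0.480 to 5.80 CPM in the cecum (median 3.08) and from 3.66 to 20.2 CPM in the descending colon (median 6.17). It was higher in the descending colon in 10 of 10 letters, at 1.47 ± 0.36 (edgeR, adjusted p = 0.164), but on as few as 1 to 17 counts per cecum library. miR-9-5p, best known from neurons and their progenitors, ran from 12.7 to 71.1 CPM in the cecum (median 62.3) and from 36.4 to 170 CPM in the descending colon (median 103). It was higher in 9 of 10 letters, all but D, at 0.88 ± 0.26 (adjusted p = 0.270).

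miR-374a, which lies next to MIR374C, ran from 56.1 to 114 CPM (median 83.8) and from 71.1 to 165 CPM (median 121), at 0.50 ± 0.15 (edgeR, adjusted p = 0.270) and higher in 9 of 10 letters. miR-26c ran from 16056 to 30964 CPM (median 18285) and from 18182 to 77508 CPM (median 27095), at 0.57 ± 0.22 (adjusted p = 0.667). Its gene lies next to MIR26A-1, and its counts came to 92.8% to 97.1% of those of miR-26a in each library, so that the same reads may have been counted for both. DESeq2 with the block called miR-6522 (adjusted p = 0.00116), miR-9-5p (0.0281) and miR-374a (0.0357) beside miR-215, 4 of 261 (1.53%).

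Among miRNAs with lower levels in the descending colon, miR-223 came first. It ran from 14.5 to 232 CPM in the cecum (median 106) and from 4.60 to 183 CPM in the descending colon (median 29.6). It was lower in 8 of 10 letters, and the other two, G and H, hardly differed between the regions. Its log2 fold change was -1.36 ± 0.34 (edgeR, adjusted p = 0.164). DESeq2 with the block called it (adjusted p = 0.00172) together with miR-1307, 2 of 261 (0.766%). The other 8 miRNAs of the leukocyte list went both ways. miR-147 was at -1.38 (edgeR, adjusted p = 0.667), miR-146b at -0.37 and miR-155 at -0.15, while miR-142-5p, found throughout blood cells, was at 0.18 ± 0.25 and miR-150, a lymphocyte miRNA, at 0.45 ± 0.34 (adjusted p = 0.982 for each of the last 4). In bulk tissue, fewer cells of a type and less RNA per cell cannot be told apart.

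miR-1307 ran from 44.2 to 79.2 CPM in the cecum (median 57.7) and from 27.0 to 68.2 CPM in the descending colon (median 43.7), lower in 9 of 10 letters, at -0.58 ± 0.16 (edgeR, adjusted p = 0.216). miR-432, of the imprinted DLK1-DIO3 cluster, was lower in 9 of 10 letters at -0.50 ± 0.20 (adjusted p = 0.667). miR-147, which in mouse and human is induced in inflammation and lies in the transcript of C15orf48, ran from 2.82 to 86.5 CPM in the cecum (median 41.7) and from 0 to 46.7 CPM in the descending colon (median 14.9). It was at -1.38 ± 0.55 (adjusted p = 0.667) and lower in 8 of 10 letters. miR-211, which lies beside TRPM1 and is best known from pigment cells, had medians of 27.9 and 6.24 CPM and stood at -1.31 ± 0.53 (adjusted p = 0.667). It was lower in 8 of 10 letters, and the exceptions were H, whose descending colon held 60.6 CPM, and I, whose cecum held 0.705 CPM.

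**Figure D4:**
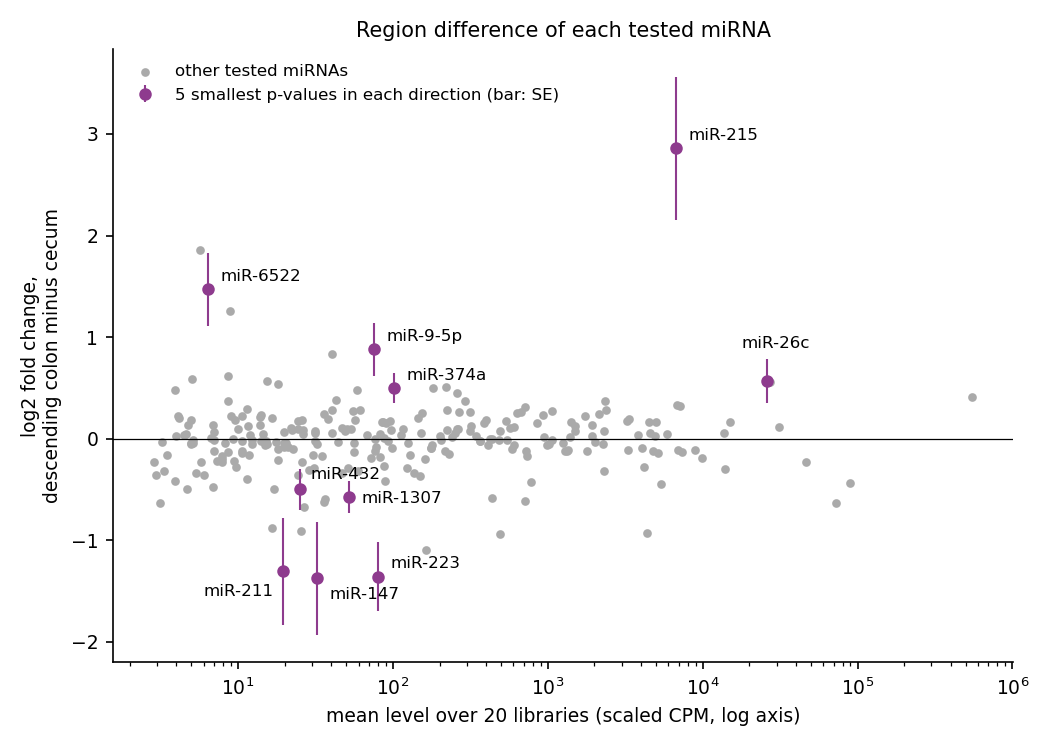
Log2 fold change of descending colon over cecum (y) against the mean level over 20 libraries in scaled CPM (x, log axis) for the 261 tested miRNAs. The 5 miRNAs with the smallest p-values in each direction are named, with SE bars. miR-215 stands at 2.86, above every other tested miRNA, and the 10th and 90th percentiles of all points are -0.37 and 0.29.

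Several of these miRNAs passed in fits that left out the libraries that stood apart and also changed the model. In the blocked edgeR fit of the cecum and descending colon alone, without letters G, H and I, miR-215 did not pass, as given above. Without the 4 libraries and with no block, edgeR called 2 of 279 higher (0.717%), miR-215 and miR-6522, and 3 lower (1.08%), miR-211, miR-223 and miR-6526. miR-211 was then at -2.23 ± 0.37 (adjusted p = 0.00170) and miR-223 at -1.88 ± 0.46 (0.0416). miR-6526, which the low-count filter removes in the main fit, was at -2.41 (0.0371). It entered this fit on 10 or more counts in 8 of 9 cecum libraries but in 3 of 7 descending colon libraries, so the filter favoured a call in this direction and nothing is read from it. In the fit of 6 regions without letters G, H and I, 5 of 284 passed as higher and 5 as lower (1.76% each). These libraries and letters were left out for marker levels seen in these data, so the calls are no separate support for a region difference, and the miRNAs first named here were chosen after their values were seen.

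The higher calls in that fit were miR-215, miR-6522 (1.52 ± 0.34, edgeR adjusted p = 0.00540), miR-153 (1.49 ± 0.42, 0.0370), miR-9-5p (0.94 ± 0.22, 0.00872) and miR-29c (0.84 ± 0.18, 0.00540). miR-153 is known from neurons and endocrine cells, and miR-29c targets collagens. Over all 10 letters their median levels were 12.7 and 14.8 CPM for miR-153, and 179 and 267 CPM for miR-29c, in the cecum and the descending colon. In the main fit they were at 0.53 ± 0.61 (adjusted p = 0.982) and 0.51 ± 0.24 (0.876).

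The lower calls were miR-211 (-2.18 ± 0.55, edgeR adjusted p = 0.0125), miR-223 (-1.78 ± 0.42, 0.00885), miR-212 (-1.69 ± 0.42, 0.0125), miR-378d (-0.81 ± 0.24, 0.0437) and miR-378 (-0.61 ± 0.12, 0.00335). Over all 10 letters miR-212 was low, with medians of 1.92 CPM in the cecum and 1.56 CPM in the descending colon. Libraries at 0 occurred in both, and the filter of the main fit removes it. Leaving out the libraries that stood apart, it had 10 or more counts in 2 of 9 cecum and 2 of 7 descending colon libraries. Nothing is therefore read from its call. miR-212 is transcribed with miR-132, which in the main fit stood at -0.63 ± 0.28 (edgeR adjusted p = 0.806). miR-378 is encoded, in human and mouse, inside PPARGC1B, the gene of a coactivator of energy metabolism. Over all 10 letters miR-378 had medians of 4775 CPM in the cecum and 3774 CPM in the descending colon, and was at -0.28 ± 0.28 (adjusted p = 0.982) in the main fit. How reads were divided between miR-378 and miR-378d is uncertain.

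**Figure D5:**
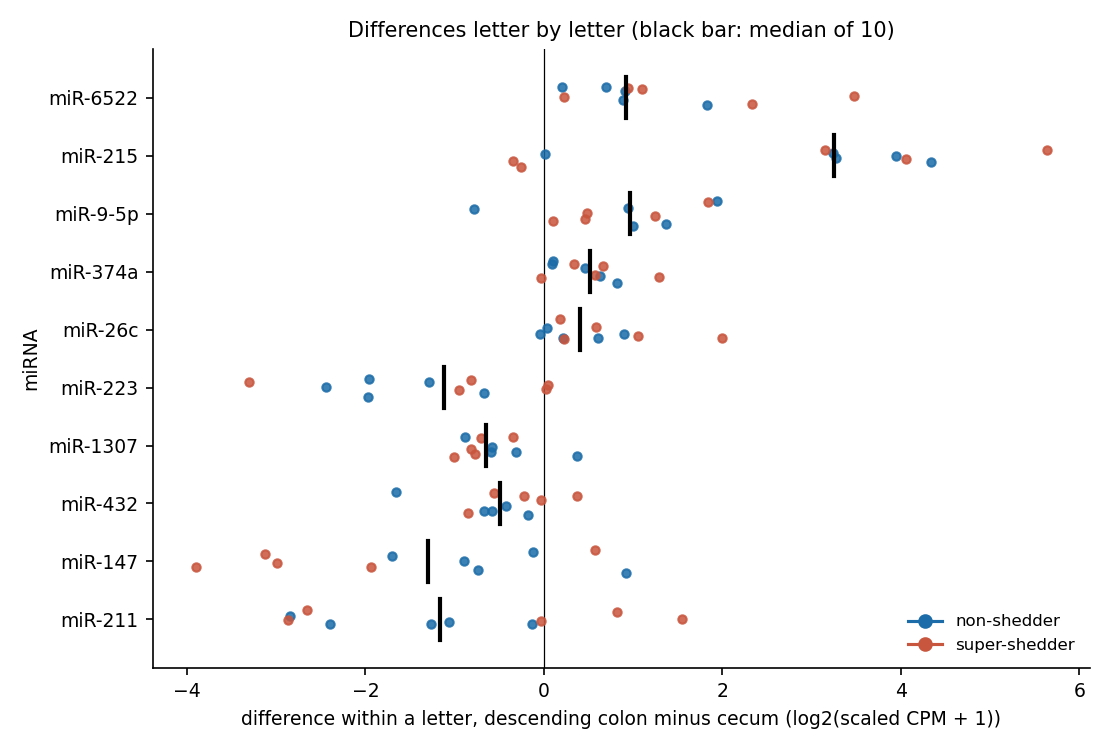
Difference between descending colon and cecum within each letter, in log2(scaled CPM + 1), for the 5 miRNAs with the smallest p-values in each direction. Points are letters, coloured by shedding status, and the black bar is the median of 10. miR-6522 lies above 0 in 10 of 10 letters, miR-215 in 8, and miR-223 below 0 in 8.

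By groups of related miRNAs, 0 members of 17 lists passed in the main fit. The 4 tested HOX-cluster miRNAs all had negative log2 fold changes, with a median of -0.69 against -0.00 over all tested miRNAs, and of -0.44 without letters G, H and I. They were miR-196a (-1.09 ± 0.91), miR-196b (-0.94 ± 1.18), miR-10b (-0.44 ± 0.57) and miR-10a (-0.23 ± 0.64), each at an edgeR adjusted p of 0.982. By letter their median difference ran from -5.54 to 4.07, and it was positive in 4 of 10 letters.

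Epithelial lists leaned in different directions. All 5 members of the miR-200 family, which keeps cells epithelial, were negative, with a median of -0.59 that shrank to -0.15 without G, H and I, and miR-200b stood at -0.93 ± 0.67 (edgeR, adjusted p = 0.982). The miR-183 cluster of sensory and neuroendocrine cells had 3 of 3 negative members with a median of -0.27, and 0.10 without those letters. The endocrine list had 2 of 3 positive members and a median of 0.09, with miR-375, the main miRNA of endocrine cells, at -0.14 ± 0.75. Squamous epithelium, which lines the anal end of the gut, was represented by miR-205, at 0 to 17.1 CPM in the cecum and 0.531 to 15.9 CPM in the descending colon (0.13 ± 0.72, adjusted p = 0.982).

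Muscle miRNAs ranged widely within both regions. miR-143 ran from 100887 to 1021460 CPM in the cecum and from 50713 to 1352160 CPM in the descending colon, at 0.41 ± 0.59, and miR-145 stood at 0.28 ± 0.71 (edgeR, adjusted p = 0.982 for both). The smooth muscle list made up 16.3% to 70.6% of counts in the cecum and 11.7% to 69.4% in the descending colon, with the higher share in the descending colon in 5 of 10 letters. The striated muscle list had 2 of 4 positive members and a median of 0.09. Stroma and endothelium had 9 of 12 positive members and a median of 0.11, which became -0.02 without G, H and I.

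The leukocyte list had 5 of 9 positive members (median 0.03). The erythroid list had 0 of 2 (median -0.08), but the fit without the block gave 1.67, with the descending colon of letter I as described above. Neural miRNAs, of which 4 of 9 measured were tested, had 3 of 4 positive members and a median of 0.28. The largest positive values were those of miR-9-5p and miR-338 (0.48 ± 0.23, edgeR adjusted p = 0.876). The negative member was miR-132 (-0.63 ± 0.28, adjusted p = 0.806). The miR-17-92 family and its paralogs, which accompany proliferation, had 4 of 13 (median -0.02), the let-7 family 5 of 10 (-0.02), the DLK1-DIO3 cluster 8 of 22 (-0.04) and the bovine miR-2284/miR-2285 family 3 of 10 (-0.03). Liver and pancreas miRNAs had 0 tested members, and miR-122 reached at most 6.70 CPM, in the cecum of letter I. Scaling to total counts moved the median of all tested miRNAs to -0.21, and the endocrine, striated muscle, stroma and leukocyte medians turned negative with it, at -0.14, -0.15, -0.13 and -0.16.

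Whether the region difference depends on shedding status was tested as an interaction, and 0 of 261 miRNAs passed (0%), with 3 at an unadjusted p under 0.05. The smallest p belonged to miR-34a, a target of p53. In non-shedders miR-34a was higher in the descending colon in 5 of 5 letters, by 0.21 to 0.99 on the log2(CPM + 1) scale. In super-shedders it was lower in 5 of 5, by -0.75 to -0.20. The fitted log2 fold changes were 0.52 ± 0.21 and -0.57 ± 0.21, and their difference of -1.09 ± 0.29 did not pass (edgeR, adjusted p = 0.902).

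miR-210, a miRNA of the hypoxia response, and miR-147 followed. For miR-210 the difference between statuses was -1.37 ± 0.58 (edgeR, adjusted p = 0.997), with 2 of 5 non-shedder and 0 of 5 super-shedder letters higher in the descending colon. For miR-147 it was -2.15 ± 0.96 (adjusted p = 0.997), with 1 of 5 letters higher in either status. Within non-shedders alone 0 miRNAs passed and 9 had an unadjusted p under 0.05, and within super-shedders 0 passed and 11 did (edgeR). The libraries that stood apart all came from super-shedders. Without letters G, H and I the interaction again had 0 calls, with miR-34a at -0.94 (adjusted p = 0.689).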

How the data were processed

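Small RNA libraries were made from snap-frozen intestinal biopsies with the mirVana and TruSeq small RNA kits, per the labels' protocols. The authors deposited raw read counts per mature miRNA, 608 miRNAs in 60 libraries. The submitters' processing notes name Bowtie and edgeR without version or role. The build, the annotation and the counting of multi-mapping reads were not given in the sources used here. Of the 608 names 600 matched the reference gene table (ARS-UCD2.0), which served for names and neighbours only.

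The 20 libraries of cecum and descending colon were fitted in R 4.3.3 with edgeR 4.0.16: filterByExpr (minimum count 10, 261 miRNAs kept), TMM scaling, the letter as a block, and the quasi-likelihood F test, two-sided, with Benjamini-Hochberg adjustment over all tested miRNAs and a threshold of 0.05. The SE is the size of the log2 fold change over the square root of F. The 95% intervals multiply this SE by a t quantile set by the 10 letters. They do not use the degrees of freedom of the F test, so an interval can include 0 where the unadjusted p is under 0.05. Alternatives used DESeq2 1.42.0, limma 3.58.1, other scalings and filters, no block, all 60 libraries, and letters or libraries left out. The test was also run on simulated counts with known changes.

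The letter was taken as the animal because it keeps 1 status over all regions. As a check, log2 levels were taken as deviations from the mean of the same region and shedding status. These deviations correlated at a mean of 0.0780 between libraries of the same letter (from -0.274 in A to 0.570 in B, 5 of 10 over 0.1) and -0.00134 between different letters. Of the cecum libraries, 2 of 10 had their best match in their own letter. The pairing therefore rests on the labels and not on this check. Over pairs of libraries of a region the chi-square statistic was 141 to 8476 times its degrees of freedom, far beyond counting error. Where 1 letter is not 1 animal, p-values measure only the spread between these samples.

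Named miRNAs are the 5 with the smallest p in each direction, given as not passing, since fewer than 5 passed. For the interaction they are the 3 with the smallest p. The 4 members of each list with the highest mean level could be named as well. The comparison, the lists and the libraries left out were chosen with earlier results of these data known. Limits for a count of 0 (3 counts) cover counting error only, while the intervals of fold changes rest on the spread between letters.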

Additional observations from a re-analysis of the deposited data

Results flagged for a closer look

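Single libraries lay far from the other 9 of their region in 18 of 68 groups of 10 examined, by the gap to the nearest library relative to the whole range. Chance meets this rule in about 1 in 20 independent groups if the values are normally distributed, which was not tested for these CPM. The groups examined share libraries, some of their miRNAs were named because of these libraries, and miR-26a and miR-26c have nearly the same counts, so the number is not set against that rate. Most came from letter I. The cecum of letter I was low in miR-196b (0.705 CPM), miR-196a (1.06 CPM), miR-211 (0.705 CPM), miR-147 (2.82 CPM) and miR-9-5p (12.7 CPM), and high in miR-122 (6.70 CPM). The descending colon of letter I was low in miR-192 (3356 CPM), miR-194 (71.1 CPM), miR-375 (54.1 CPM) and miR-200b (43.1 CPM). It was high in miR-486 (18670 CPM), miR-451 (1286 CPM), miR-26a (79845 CPM) and miR-26c (77508 CPM). The cecum of letter E was low in miR-375 (888 CPM) and high in miR-26a (33337 CPM). The cecum of letter A was high in miR-486 (1462 CPM), and the descending colon of letter D low in miR-143 (50713 CPM).

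The region difference of miR-34a had opposite signs in the statuses. It was higher in the descending colon in 5 of 5 non-shedder letters and lower in 5 of 5 super-shedder letters. The interaction was -1.09 ± 0.29, with an unadjusted p of 0.00346 and an adjusted p of 0.902 in edgeR, so it did not pass.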

How the results depend on the processing

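With the letter block, edgeR called 0 miRNAs (14 at an unadjusted p under 0.05). It also called 0 with a robust fit, RLE scaling or total counts, without the low-count filter, or when 10 libraries had to exceed 5 CPM, and so did limma-voom (18 at an unadjusted p under 0.05). Calls appeared with no replicate block (1 higher, miR-215 at 3.58), in DESeq2 with the block (4 higher and 2 lower, miR-215 at 2.85), with all 60 libraries (1 higher, 3.42), and with no block and without the 4 libraries that stood apart (2 higher and 3 lower, 3.12). Chosen after seeing the data were DESeq2 without the block (2 higher, 3.61), limma-voom without the block (0 calls, 13 at that p) and 6 regions without letters G, H and I (5 higher and 5 lower, 3.13). With each letter left out, the blocked fit put miR-215 between 2.54 and 3.21 (adjusted p from 0.102 to 0.387). The unblocked fit, an addition too, put it between 3.16 and 3.75, with 1 or 2 calls. The interaction gave 0 calls under every alternative in which it was run. Of 806 recomputed values, 772 kept their side of the threshold or moved by less than the spread, 19 came to pass and 15 moved further. The fold changes of the 10 miRNAs named by p and the 3 interaction values kept their sign. Of 383 recomputed list medians, 64 changed sign, in 13 of 16 lists. The differences between tools and blocks were not traced to a cause. Depth limits miR-6522 and others with a few counts per library.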

Other observations

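The level of miR-215 relative to miR-192 is given by status, a pattern chosen after its values were seen and not tested. In the cecum miR-215 counts came to 1.48% to 2.22% of miR-192 counts in the 5 non-shedders, with a median of 1.64%. In the 5 super-shedders they came to 0.634% to 1.21%, with a median of 1.15%, so the statuses did not overlap. In the descending colon the medians were 23.5% and 18.4%, and the ranges of 2.01% to 38.9% and 3.86% to 24.9% overlapped. In the small intestine the non-shedder medians were likewise above those of super-shedders, at 30.6% against 20.1% in the duodenum, 22.4% against 13.4% in the proximal jejunum and 18.5% against 15.6% in the distal jejunum. The ranges of the statuses overlapped in each of these small intestine regions. In the spiral colon the medians were 6.96% in non-shedders and 12.9% in super-shedders, with overlapping ranges.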
